A study of Mus musculus with 42 samples.

Results

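The 6 sulfotransferase genes Sult1a1, Sult1b1, Sult1c2, Sult1d1, Sult1e1 and Sult5a1 were described in liver, quadriceps muscle and visceral fat of Akt1+/- and wild-type (Wt) mice. They were taken by gene name from the probes of the array that are not controls, which gave 7 probes of 41174 and 6 genes of 27597. Sult1b1 had a pair of probes and every other gene had 1. The family was chosen by the lower level of Sult1e1 in Akt1+/- liver, so every liver difference between the genotypes below is a description and was not tested.

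The study asked how loss of 1 Akt1 allele bears on ageing, and the arrays addressed which genes it changes in 3 tissues. Total RNA was read on 42 Agilent arrays of 1 colour, 14 per tissue. Each tissue had 4 groups, which were Wt and Akt1+/- females on the C57BL/6 strain at 8 weeks (3 arrays per genotype) and at 35 weeks (4 arrays per genotype), with no treatment named. The deletion is carried by every cell of the mouse and is not limited to a tissue, and the labels do not say whether arrays come from separate mice, so that p-values measure the spread between these arrays. The week of the older group is that of the labels, and the methods of the study name a later one.

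Cytosolic sulfotransferases move a sulfate group from the donor PAPS onto hormones, neurotransmitters, drugs and other small molecules. Sulfated steroids no longer bind their receptors, they dissolve better in water and they are excreted or stored, and sulfatases can release the hormone again. The liver is a main site of this conjugation. Sult1e1 acts on estrogens, Sult1a1 on simple phenols, Sult1b1 on phenols and thyroid hormones and Sult1d1 on catecholamines and other small molecules, whereas less is known of the substrates of Sult1c2 and Sult5a1. Akt1 is a kinase of the insulin and insulin-like growth factor pathway.

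All values are log2 levels, the log2 of a probe's processed signal minus the 75th percentile of its array, so that 0 is a bright but not extreme probe. Levels of different genes come from different probes and are not set against each other. Akt1 itself was lower in Akt1+/- tissue, with a log2 difference of −0.67 in liver (SE 0.074, limma adjusted p = 0.0023), −0.58 in muscle (SE 0.10, adjusted p = 0.076) and −0.56 in fat (SE 0.069, adjusted p = 0.0043), and every Akt1+/- array lay below every Wt array of the same tissue and age. Probes well above background made up 57.2% to 66.5% of a liver array, 57.7% to 66.0% of a muscle array and 63.9% to 69.2% of a fat array. All 5 hepatocyte markers on the array (Alb, Apoa1, Ttr, Cyp2e1, Fabp1) were well above background on every liver array, all 6 muscle markers on every muscle array and all 6 adipocyte markers on every fat array. Because the tissues were taken whole, fewer cells of a type and less RNA per cell cannot be told apart.

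Sult1b1, Sult1d1 and Sult1e1 lie side by side on chromosome 5. In the coordinates of the array (mouse build mm8), the Sult1b1 probes lie at chr5:88588097-88588156 and chr5:88589482-88589541, the Sult1d1 probe at chr5:88630194-88630253 and the Sult1e1 probe at chr5:88650723-88650782. The probe of Sult1a1 lies at chr7:126464239-126464298, that of Sult1c2 at chr17:53294809-53294868 and that of Sult5a1 at chr8:126029141-126029200. Promoters of all 6 genes, 7 in all because Sult1b1 has a pair, were found among 32851 RefSeq promoters of the build GRCm38.p6. The 250 bases before the start site are printed for Sult1e1 and for its neighbours Sult1d1 and Sult1b1, and for Sult5a1, whose liver levels followed those of Sult1e1 from another chromosome. All 4 genes run on the minus strand, each sequence reads 5′ to 3′ toward the start site, and capitals mark the nuclear receptor core AGGTCA, which appears here as its reverse complement.
Sult1e1, chr5:87591612-87591861: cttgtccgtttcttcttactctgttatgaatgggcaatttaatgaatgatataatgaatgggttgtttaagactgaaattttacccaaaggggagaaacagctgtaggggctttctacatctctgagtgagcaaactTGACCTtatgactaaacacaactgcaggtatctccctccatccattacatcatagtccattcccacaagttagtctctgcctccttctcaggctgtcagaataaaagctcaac
Sult1d1, chr5:87569007-87569256: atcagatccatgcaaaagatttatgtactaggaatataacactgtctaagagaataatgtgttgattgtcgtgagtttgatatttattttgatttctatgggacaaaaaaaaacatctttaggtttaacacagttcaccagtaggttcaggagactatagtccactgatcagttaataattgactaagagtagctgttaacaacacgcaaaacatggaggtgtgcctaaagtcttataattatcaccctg
Sult1b1, chr5:87538196-87538445: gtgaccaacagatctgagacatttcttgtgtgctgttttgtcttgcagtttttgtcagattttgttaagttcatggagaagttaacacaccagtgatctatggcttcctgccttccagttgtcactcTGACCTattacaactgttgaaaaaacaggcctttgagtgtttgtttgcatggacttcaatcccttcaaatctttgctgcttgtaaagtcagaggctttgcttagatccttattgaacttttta
Sult5a1, chr8:123158281-123158530: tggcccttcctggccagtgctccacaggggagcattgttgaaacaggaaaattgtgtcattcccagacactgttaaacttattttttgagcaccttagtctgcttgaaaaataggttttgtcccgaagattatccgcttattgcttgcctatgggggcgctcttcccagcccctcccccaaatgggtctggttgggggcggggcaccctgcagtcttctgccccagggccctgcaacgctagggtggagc
The Sult1e1 promoter held AGGTCA on the opposite strand, 113 to 108 bases before the start, and 1 of the 2 Sult1b1 promoters held it 123 to 118 bases before the start. Searched on both strands, the motif was in 2 of the 7 promoters and in 14% of all windows of this length. None of the 7 held TATAAA (12.4% of all windows), the forkhead letters GTAAACA (3.17%), the estrogen response element GGTCANNNTGACC (0.0639%), or AGGTCA repeated after 1 base (0.0335%) or 4 bases (0.0152%). The GC content of the printed windows was 40.8% for Sult1e1, 34% for Sult1d1, 39.2% for Sult1b1 and 54.4% for Sult5a1, against a median of 52.4% over all windows. A match of letters is a description and not a bound site.

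Sult1e1, the estrogen sulfotransferase, stood well above background on all 14 liver arrays and had its 3 highest liver levels in young Wt mice. The log2 level at 8 weeks was 0.15, 0.32 and 1.52 on the Wt arrays and −1.76, −2.07 and −1.11 on the Akt1+/- arrays. At 35 weeks it was −1.08, −2.25, −2.05 and −1.18 in Wt and −3.34, −2.36, −1.90 and −2.34 in Akt1+/- liver. The genotypes did not overlap at 8 weeks and overlapped at 35 weeks, and the young Akt1+/- livers (mean −1.65 ± 0.49, SD, n = 3) were at the level of the older Wt livers (mean −1.64 ± 0.59, SD, n = 4). The difference Akt1+/- minus Wt was −2.31 at 8 weeks, −0.84 at 35 weeks and −1.58 over both ages, the last being 2.98-fold lower. With a different background correction and normalization (normexp and quantile), the same differences were −1.52, −0.37 and −0.95, so that their size but not their direction hung on this choice.

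Sult1d1, the neighbour of Sult1e1, was also highest in young Wt liver. Its log2 level at 8 weeks was 5.11, 5.22 and 5.55 in Wt and 4.10, 3.94 and 2.97 in Akt1+/- liver. At 35 weeks it was 3.94, 3.95, 3.69 and 4.30 in Wt and 3.14, 3.93, 3.56 and 3.33 in Akt1+/- liver. The genotypes were apart at 8 weeks, where the difference was −1.62, and overlapped at 35 weeks, where it was −0.48.

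Sult1b1, the thyroid hormone and phenol sulfotransferase of the same cluster, was less uniform among the young Akt1+/- livers. Its level at 8 weeks was 2.07, 2.03 and 2.20 in Wt and 2.08, 0.98 and 0.88 in Akt1+/- liver, and at 35 weeks it was 1.70, 2.32, 2.06 and 2.01 in Wt and 1.15, 2.01, 1.83 and 1.74 in Akt1+/- liver. Akt1+/- replicate 1 at 8 weeks lay within the Wt range and the other two lay over 1 log2 unit below it. The dimmer second probe showed the same split at 8 weeks, with −1.03, −1.14 and −0.93 in Wt and −1.003, −2.15 and −1.995 in Akt1+/- liver, and its difference over both ages was −0.43 against −0.57 for the brighter probe.

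Sult5a1, a family member whose substrates are little known, had a pattern like that of Sult1e1. Its level at 8 weeks was 1.66, 1.05 and 1.51 in Wt and 0.89, −0.07 and −0.61 in Akt1+/- liver. At 35 weeks it was −0.05, −1.16, −1.28 and −0.84 in Wt and −1.58, −0.16, −1.21 and −1.66 in Akt1+/- liver. Young Wt livers stood above all the others, and the difference between genotypes was −1.33 at 8 weeks and −0.32 at 35 weeks.

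The phenol sulfotransferase Sult1a1 and Sult1c2 had the smallest differences between the genotypes. The level of Sult1a1 at 8 weeks was 6.85, 6.92 and 7.05 in Wt and 6.80, 6.51 and 6.27 in Akt1+/- liver, and at 35 weeks it was 6.06, 6.44, 6.59 and 6.58 in Wt and 6.01, 6.22, 6.61 and 6.17 in Akt1+/- liver. The level of Sult1c2 at 8 weeks was 0.97, 0.89 and 1.24 in Wt and 0.93, 0.36 and −0.11 in Akt1+/- liver, and at 35 weeks it was 0.62, 1.44, 0.92 and 1.01 in Wt and 0.74, 1.32, 0.88 and 0.86 in Akt1+/- liver. The genotypes were apart for Sult1a1 at 8 weeks by a narrow margin (6.85 against 6.80) and overlapped for Sult1c2 at both ages. Differences were −0.41 and −0.16 for Sult1a1 and −0.64 and −0.05 for Sult1c2, at 8 and 35 weeks.

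**Figure D1:**
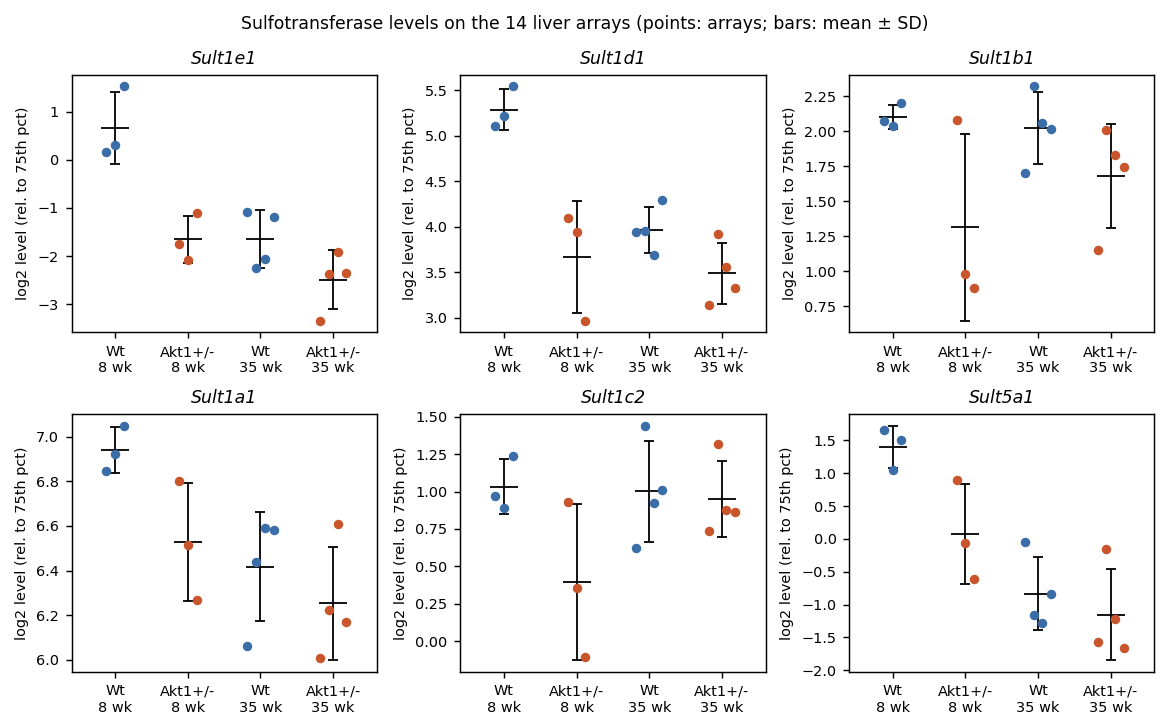
Log2 level of each sulfotransferase on the 14 liver arrays (points) by genotype and age, with the group mean and SD (bars); each panel has its own vertical scale. Sult1e1, Sult1d1 and Sult5a1 are highest on the 3 Wt arrays at 8 weeks, and Sult1b1 and Sult1c2 show 1 young Akt1+/- array near the Wt arrays and a pair below them.

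All 6 genes were lower in Akt1+/- liver on average, with differences over both ages from −1.58 (Sult1e1) to −0.29 (Sult1a1) and a median of −0.70, where the median of all 17557 genes tested in liver was 0.015. At 8 weeks, Sult1a1, Sult1d1, Sult1e1 and Sult5a1 (4 of 6) had every Akt1+/- array below every Wt array, as had 14.2% of all genes. At 35 weeks no gene of the 6 did, against 3.61% of all genes. The rule used this contrast, so nothing is read from these counts. Scaling the arrays to their median in place of the 75th percentile moved the median of all genes to −0.11, and the difference of Sult1e1 to −1.70. The liver arrays of the genotypes shared no slide at either age, so that genotype and slide cannot be told apart in liver. The same holds for muscle and fat at 35 weeks, where each genotype lay on a slide of its own, and only at 8 weeks did 1 slide of each of these tissues hold both genotypes. The genotypes of fat at 35 weeks were also scanned on different days. In fat at 8 weeks, Wt replicates 1 and 2 were scanned on another day than the rest. In liver at 8 weeks, Akt1+/- replicate 2 was.

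Summed levels of other cell types' markers also separated the young livers. Lymphocyte markers (5 or 6 of 6 well above background on every array) summed to 0.64 to 1.06 in Wt and 1.55 to 1.61 in Akt1+/- liver at 8 weeks, macrophage markers (6 of 6) to 5.57 to 5.76 and 5.84 to 6.01, and bile duct markers (4 of 4) to 3.30 to 3.41 and 2.94 to 3.09. Hepatocyte markers (5 of 5) summed to 10.72 to 10.90 in Wt and 10.57 to 10.71 in Akt1+/- liver. The adipocyte sum was 1.89 to 2.58 in Wt and 3.89 to 6.53 in Akt1+/- liver, with Cidec the only one of its 6 markers above background on every array. The part of these markers in the sulfotransferase levels was not tested.

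With age, 4 of the 6 sulfotransferases fell in liver and none rose, against 14.7% of all genes called lower (limma, adjusted p under 0.05 over all genes). If the arrays err independently and with equal spread, the error of this age difference, averaged over both genotypes, is uncorrelated with that of the genotype difference that chose the family, so it was tested. A slide effect would break this condition, since each genotype of an age lay on other slides, and the condition was not tested. Sult5a1 fell by 1.73 on the log2 scale, or 3.32-fold (SE 0.30, adjusted p = 9.5e-04). Sult1e1 fell by 1.57, or 2.97-fold (SE 0.30, adjusted p = 0.0018), and Sult1d1 fell by 0.75, or 1.68-fold (SE 0.19, adjusted p = 0.0082). Sult1a1 fell by 0.40 (SE 0.12, adjusted p = 0.023), and this call was lost without Wt replicate 3 at 8 weeks (adjusted p = 0.053) or without Akt1+/- replicate 1 at 8 weeks (adjusted p = 0.063). The other two, Sult1b1 and Sult1c2, had age differences of 0.14 (95% interval −0.27 to 0.56) and 0.26 (−0.11 to 0.63), which did not pass.

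By genotype, the age differences were described and not tested, because they share the arrays that chose the family. In Wt liver they were −2.31 for Sult1e1, −2.24 for Sult5a1, −1.32 for Sult1d1 and −0.52 for Sult1a1, and in each of these 4 genes every older array lay below every young array, as for 19.3% of all genes. In Akt1+/- liver they were −0.84, −1.22, −0.18 and −0.27, and the ages overlapped for all 6 genes, where 8.54% of all genes were apart and lower. Sult1b1 and Sult1c2 differed by −0.08 and −0.03 in Wt and by 0.37 and 0.55 in Akt1+/- liver. No scan day held both ages, so that age and scan day cannot be told apart, and the marker sums of lymphocytes (1.70 to 2.09), bile duct (2.69 to 3.02) and adipocytes (2.92 to 5.10, with Cidec again the only marker above background on every array) in older Wt liver were apart from those of young Wt liver given above. So was that of pancreatic acinar cells, with 1 of 6 markers well above background on every array (−1.62 to −1.25 in young and −1.20 to −0.91 in older Wt liver). Their part in the age differences was not tested.

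**Figure D2:**
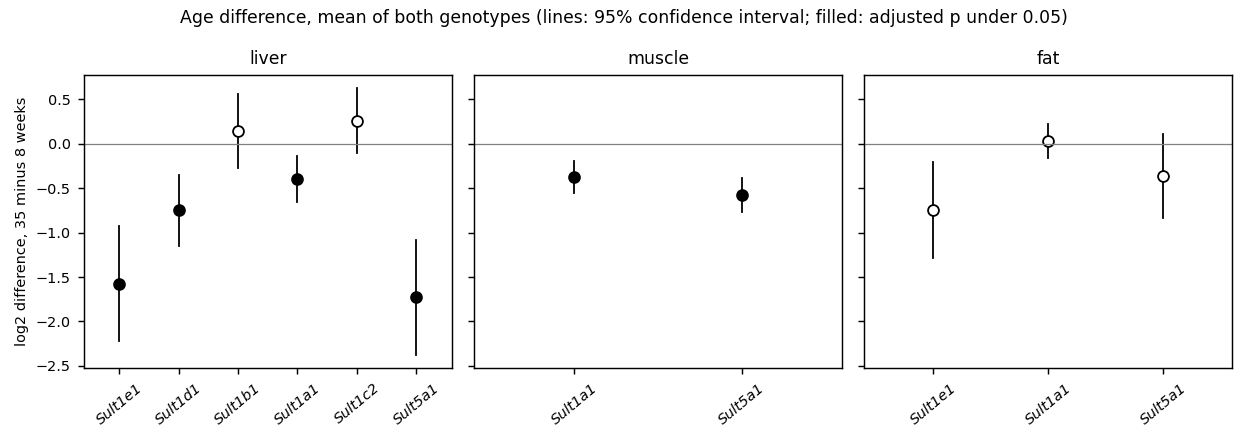
Log2 difference between 35 and 8 weeks, averaged over both genotypes, for each sulfotransferase tested in each tissue, with its 95% confidence interval; filled circles passed an adjusted p of 0.05. In liver Sult1e1 (−1.57) and Sult5a1 (−1.73) fell most, in muscle Sult1a1 (−0.37) and Sult5a1 (−0.58) fell, and in fat no gene passed.

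In muscle only Sult1a1 and Sult5a1 were well above background, each on all 14 arrays, and both fell with age. The level of Sult1a1 at 8 weeks was 3.23, 3.003 and 3.08 in Wt and 3.35, 3.26 and 3.55 in Akt1+/- muscle, and at 35 weeks it was 2.61, 2.83, 2.83 and 2.90 in Wt and 2.93, 2.68, 3.15 and 3.03 in Akt1+/- muscle. The level of Sult5a1 at 8 weeks was 0.37, −0.18 and −0.15 in Wt and 0.08, 0.13 and 0.06 in Akt1+/- muscle, and at 35 weeks it was −0.56, −0.47, −0.70 and −0.43 in Wt and −0.47, −0.51, −0.64 and −0.43 in Akt1+/- muscle. Every older array was below every young array of its genotype for both genes, as for 19.7% of all genes in Wt and 9.58% in Akt1+/- muscle. Sult5a1 fell by 0.58 on the log2 scale (SE 0.088, limma adjusted p = 5.3e-04), and Sult1a1 fell by 0.37 (SE 0.084, adjusted p = 0.0058), where 14.5% of all genes were called lower. In a joint fit over the 42 arrays the call of Sult5a1 was lost (adjusted p = 0.059). Summed markers of Wt muscle also differed between the ages, those of adipocytes (6 of 6 well above background on every array) from 4.59 to 5.85 in young and from 6.14 to 6.75 in older muscle and those of red blood cells (2 or 3 of 3) from 5.55 to 6.07 and from 4.01 to 4.67. Skeletal muscle markers (6 of 6) summed to 11.99 to 12.10 in young and 12.23 to 12.30 in older Wt muscle, and those of ovary and uterus (2 of 6) to −0.66 to −0.47 and −1.52 to −1.28. Their part in the age differences was not tested.

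No sulfotransferase was called between the genotypes in muscle. The difference Akt1+/- minus Wt was 0.22 for Sult1a1 (95% interval 0.04 to 0.40, limma adjusted p = 0.21, unadjusted p = 0.023) and 0.05 for Sult5a1 (−0.14 to 0.24, adjusted p = 0.78). None of the 17135 genes tested was called, while 3160 had an unadjusted p under 0.05, and the methods' two-way test called 1 gene after Benjamini-Hochberg adjustment at the same threshold. Every young Akt1+/- array was above every young Wt array for Sult1a1, as for 8.42% of all genes, and on the slide that held 3 Wt arrays and 1 Akt1+/- array the difference was 0.24. Red blood cell markers (3 of 3) also separated young muscle, with sums of 5.55 to 6.07 in Wt and 5.01 to 5.23 in Akt1+/- muscle, and their part was not tested. Sult1b1, Sult1c2 and Sult1e1 were not well above background on any muscle array, and Sult1d1 was so on 1 array, Akt1+/- replicate 3 at 8 weeks (−4.93). That array also had the highest sum of hepatocyte markers in muscle (5.79, against −0.28 to 2.85 on the others), and the part of liver RNA in it was not tested.

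In visceral fat Sult1a1, Sult1e1 and Sult5a1 were well above background on all 14 arrays. The level of Sult1e1 at 8 weeks was −2.27, −2.50 and −2.68 in Wt and −1.57, −1.99 and −1.72 in Akt1+/- fat, so that the young genotypes were apart in the direction opposite to liver, as were 11.9% of all genes in fat. At 35 weeks it was −2.91, −3.88, −2.70 and −2.56 in Wt and −1.77, −3.20, −2.89 and −3.01 in Akt1+/- fat, and the genotypes overlapped. The difference over both ages was 0.51 (95% interval −0.03 to 1.05, limma adjusted p = 0.28) and did not pass. At 8 weeks it was 0.72 (adjusted p = 0.25), and 0.92 on the slide that held 1 Wt and 3 Akt1+/- arrays.

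Sult1a1 levels in young fat did not overlap between the genotypes. The level at 8 weeks was 6.12, 6.21 and 6.42 in Wt and 5.77, 6.00 and 5.73 in Akt1+/- fat, and at 35 weeks it was 6.02, 6.27, 6.14 and 6.38 in Wt and 5.97, 6.01, 5.73 and 6.08 in Akt1+/- fat. The young arrays were apart, as for 15.3% of all genes, and the older arrays overlapped. The difference over both ages was −0.33 (SE 0.087, unadjusted p = 0.0023), which did not pass over all genes (limma adjusted p = 0.091; 0.773% of all genes were called). By the methods' two-way test it passed the unadjusted threshold of 0.01 that the methods use, and did not pass after Benjamini-Hochberg adjustment. Within the shared slide at 8 weeks it was −0.59. Summed markers that also separated young Wt from young Akt1+/- fat were those of mesothelium (5 of 5 well above background on every array, 4.38 to 4.93 and 5.04 to 5.57), of red blood cells (2 of 3, 6.86 to 7.94 and 6.50 to 6.82), of hepatocytes (2 or 3 of 5, 6.45 to 6.80 and 6.27 to 6.31), of bile duct (3 or 4 of 4, 1.57 to 2.05 and 2.34 to 2.59) and of ovary and uterus (2 of 6, −0.09 to 0.17 and 0.31 to 0.46). Their part in the levels of Sult1e1 and Sult1a1 was not tested.

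The level of Sult5a1 in fat varied among young arrays of 1 group as much as between groups. It was 1.21, 0.56 and 0.40 in Wt and 1.39, 1.30 and 0.05 in Akt1+/- fat at 8 weeks, and 0.58, 0.23, 0.27 and 0.94 in Wt and 0.60, 0.49, 0.16 and 0.38 in Akt1+/- fat at 35 weeks. Its genotype difference was 0.05 (95% interval −0.43 to 0.52, limma adjusted p = 0.93). With age, none of the 3 genes passed in fat (limma, against 9.06% of all genes called lower and 10% called higher), and only Sult1e1 had an unadjusted p under 0.05. The age differences were −0.74 for Sult1e1 (−1.28 to −0.20, adjusted p = 0.054), −0.36 for Sult5a1 (−0.83 to 0.11, adjusted p = 0.26) and 0.03 for Sult1a1 (−0.16 to 0.22, adjusted p = 0.82). Sult1e1 passed under 4 other settings (adjusted p from 0.038 to 0.049) and when 1 array of older fat was left out, either Akt1+/- replicate 1 (adjusted p = 0.0095) or Wt replicate 4 (0.047), and Sult5a1 passed without Akt1+/- replicate 3 at 8 weeks (0.028). No change of the genotype difference with age was called for any of them in muscle or fat (limma, lowest adjusted p = 0.63), where 0% of all genes in muscle and 1.5% in fat were called.

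**Figure D3:**
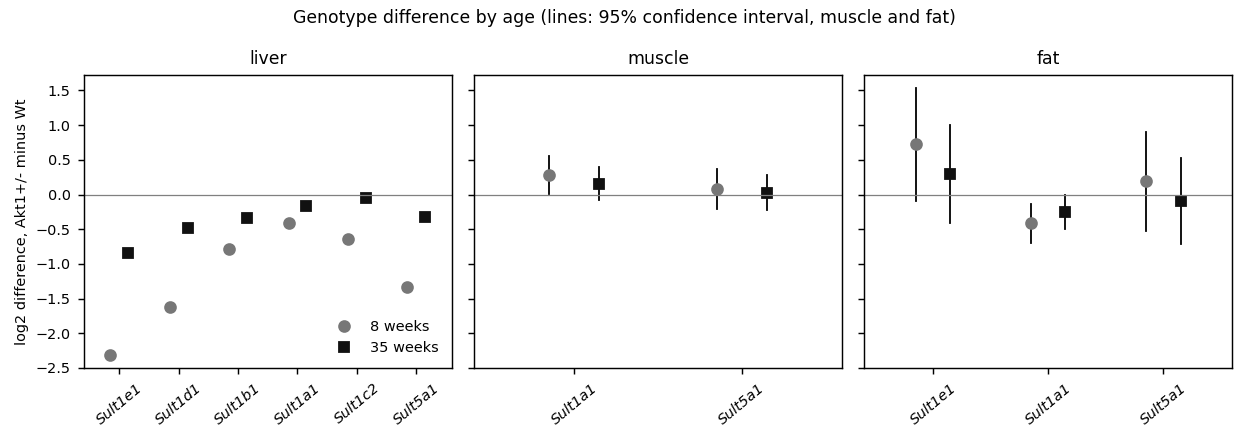
Log2 difference Akt1+/- minus Wt at 8 weeks (circles) and 35 weeks (squares) for each sulfotransferase well above background in a tissue, with 95% confidence intervals in muscle and fat; liver values have none because the liver contrast chose the family. Sult1e1 at 8 weeks is at −2.31 in liver and 0.72 in fat, and Sult1a1 is below 0 in liver (−0.41) and fat (−0.42) and above 0 in muscle (0.28).

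The genotype difference of Sult1a1 was compared between fat and muscle in 1 fit over the 42 arrays, a comparison chosen after its values were seen. The difference in fat minus that in muscle was −0.55 (SE 0.14, limma adjusted p = 0.054, where 0.766% of all genes were called). At 8 weeks alone the same comparison gave −0.70 (SE 0.21, adjusted p = 0.086, where 1.24% of all genes were called). Neither passed, although the first passed under 5 of the other settings (adjusted p from 0.042 to 0.050) and in 8 of the fits that left out 1 array, and the second under 1 of them (0.035).

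Between Wt tissues, liver stood above muscle for all 6 genes, where 38.1% of all genes were called higher in liver. Sult1b1, Sult1c2, Sult1d1 and Sult1e1 passed the filter on dim probes through liver or fat and not through muscle, so that they had to differ, and the Wt liver arrays are among those that chose the family. Because a probe below background gives only a bound, the difference is given as the mean of the bright tissue over the dimmest signal that counts as above background. Wt liver over Wt muscle, Sult1d1 was higher by at least 1651-fold in young and 671-fold in older mice. Sult1b1 was at least 181-fold and 174-fold higher, Sult1c2 at least 85.5-fold and 85.7-fold, and Sult1e1 at least 66.9-fold and 13.7-fold. The Sult1e1 bound in Akt1+/- mice was 13.8-fold and 5.75-fold. The Wt bounds hold only for this scaling. Under other settings the log2 difference of Wt liver over muscle, averaged over both ages, went down to 7.02 for Sult1d1 and 4.78 for Sult1b1. It went down to 3.74 for Sult1c2 and 2.43 for Sult1e1. Of the genes measured on both sides, Sult1a1 was 13.3-fold higher in liver than in muscle (log2 difference 3.73, SE 0.10, limma adjusted p = 1.2e-26) and Sult5a1 was 1.46-fold higher (0.55, SE 0.23, adjusted p = 0.031), a call lost in 6 of the fits that left out 1 array.

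Liver also stood above fat for 5 of 6 genes, where 41.5% of all genes were called higher in liver. Sult1b1, Sult1c2 and Sult1d1 passed the filter on dim probes through liver and not through fat, so that they had to differ. Nothing is therefore read from this count. Sult1e1, given as a description because its Wt liver arrays chose the family, was 4.79-fold higher in liver (log2 difference 2.26, and 1.51 with normexp and quantile normalization). Its mean log2 level in Wt mice was 0.66 in liver against −2.49 in fat at 8 weeks, and −1.64 against −3.01 at 35 weeks. Sult1a1 was 1.37-fold higher (0.45, SE 0.10, limma adjusted p = 1.3e-04), but with normexp and quantile normalization it was lower in liver (−0.58, adjusted p = 6.0e-07), so that its direction hangs on the scaling. Sult5a1 differed by −0.33 (95% interval −0.80 to 0.14, adjusted p = 0.19). Bounds at 35 weeks were at least 851-fold for Sult1d1, 221-fold for Sult1b1 and 109-fold for Sult1c2. They too hold only for this scaling. Under other settings the log2 difference, averaged over both ages, went down to 6.95 for Sult1d1, 4.76 for Sult1b1 and 3.82 for Sult1c2. Sult1d1 and Sult1c2 were each well above background on 1 fat array, Wt replicate 1 at 8 weeks (−5.54) and Wt replicate 3 at 8 weeks (−5.24).

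Fat stood above muscle for Sult1a1, Sult1e1 and Sult5a1, where 40.6% of all genes were called lower in muscle than in fat. The difference muscle minus fat was −3.28 for Sult1a1 (9.71-fold, SE 0.10, limma adjusted p = 1.2e-24) and −0.88 for Sult5a1 (1.84-fold, SE 0.23, adjusted p = 9.4e-04). In Wt fat Sult1e1 was at least 7.54-fold higher than in Wt muscle in young mice and at least 5.31-fold in older mice. In Akt1+/- mice it was at least 12.8-fold and 4.88-fold higher. The Wt bounds of Sult1e1 hold only for this scaling. Under other settings its Wt log2 difference muscle minus fat, averaged over both ages, shrank to as little as −0.92. Sult1b1 was also called here, higher in muscle, but it was not well above background on any array of either tissue, so that no difference was measured.

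**Figure D4:**
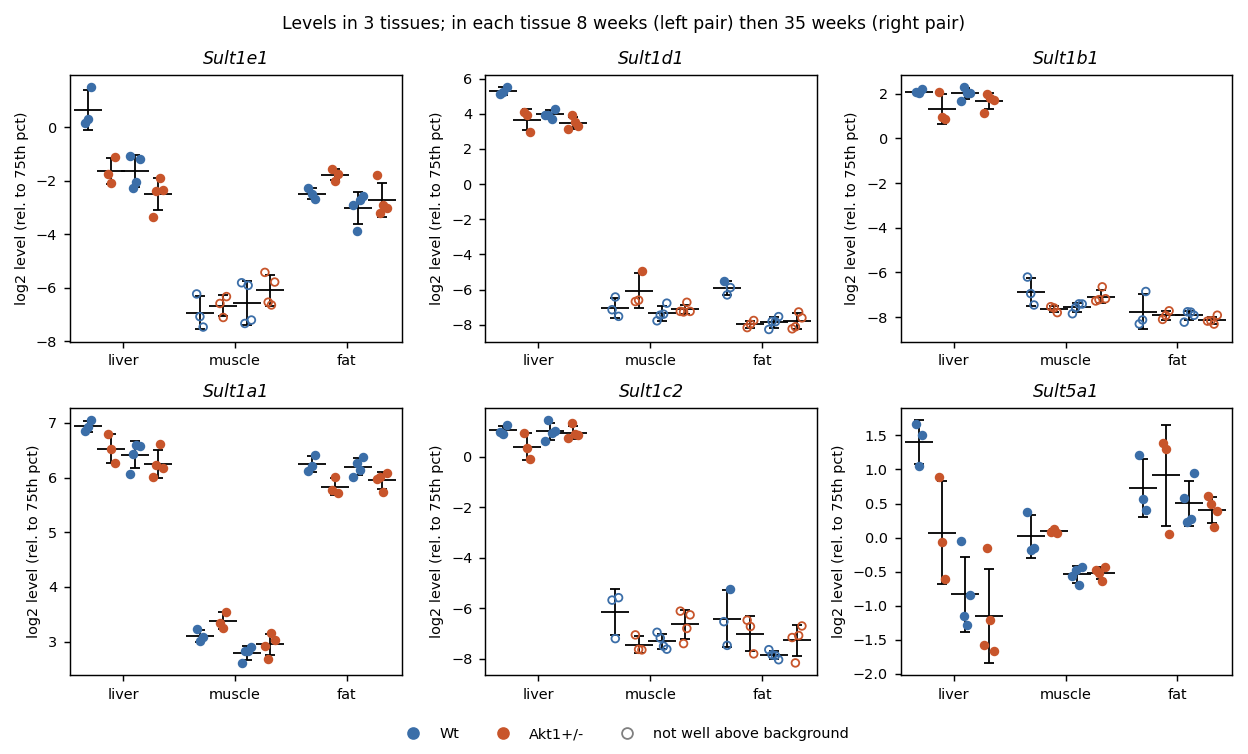
Log2 level of each sulfotransferase on all 42 arrays by tissue, with Wt in blue and Akt1+/- in orange, 8 weeks as the left pair and 35 weeks as the right pair of each tissue, and the group mean and SD as bars; open circles were not well above background. Sult1b1, Sult1c2 and Sult1d1 are at background outside liver, Sult1e1 is at background in muscle, and Sult1a1 and Sult5a1 are measured everywhere.

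Among the liver and fat groups, the levels of Sult1e1 fell into an order with 1 group above all others. The distance between the tissues hangs on the scaling, since the Wt difference of liver over fat was 2.26, and 1.51 with normexp and quantile normalization. Wt liver at 8 weeks (mean 0.66 ± 0.75, SD, n = 3) was above the next group without overlap. Wt liver at 35 weeks (−1.64), Akt1+/- liver at 8 weeks (−1.65) and Akt1+/- fat at 8 weeks (−1.76 ± 0.21, n = 3) followed and overlapped each other. Wt fat at 8 weeks (−2.49 ± 0.21, n = 3) was below Akt1+/- fat at 8 weeks without overlap, and Akt1+/- liver (−2.49 ± 0.61, n = 4), Akt1+/- fat (−2.72 ± 0.64, n = 4) and Wt fat (−3.01 ± 0.60, n = 4) at 35 weeks overlapped each other. All muscle groups were below background.

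Over the 14 liver arrays the 6 genes were positively correlated in all 15 pairs, with Pearson's r from 0.09 to 0.88 (median 0.60). These correlations are a description, since the arrays share 4 groups that differ in mean. After subtracting the group means, 14 of the 15 pairs stayed positive, with r from −0.15 to 0.87 (median 0.48). This count was not set against other pairs of genes, so nothing is read from it. Sult1b1 and Sult1c2, on different chromosomes, were the closest pair by either measure (0.88 and 0.87). Sult1e1 was close to Sult1d1 (0.84), Sult5a1 (0.80) and Sult1a1 (0.73) by level, whereas within groups its r with the other 5 genes was 0.24 or less. Within groups Sult1d1 was closer to Sult1c2 (0.73), Sult5a1 (0.69) and Sult1b1 (0.62) than to its neighbour Sult1e1 (0.19).

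**Figure D5:**
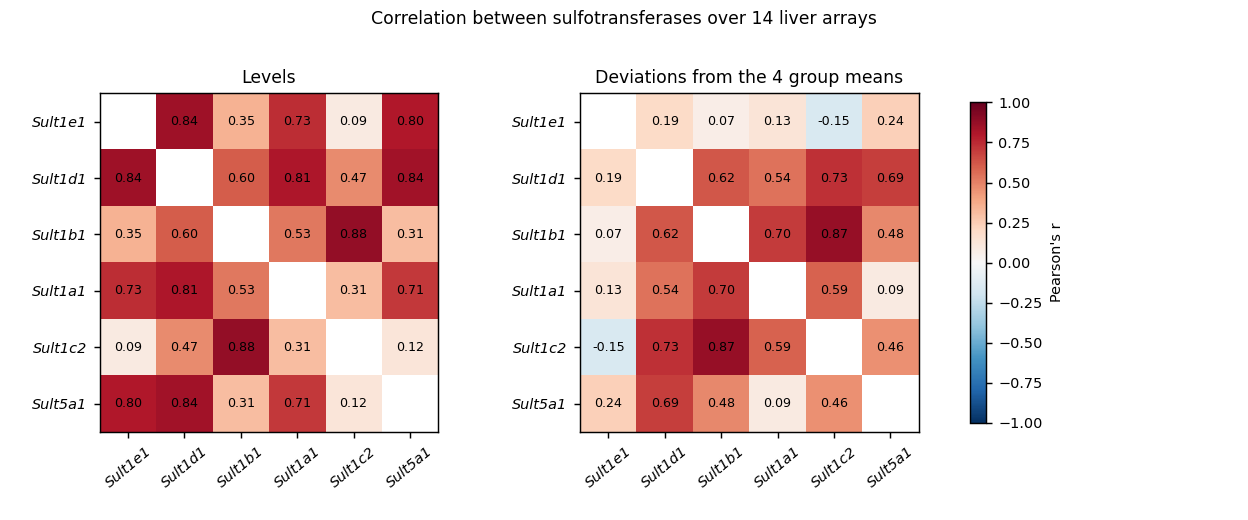
Pearson's r between each pair of sulfotransferases over the 14 liver arrays, of the levels (left) and of the deviations from the 4 group means (right), on a colour scale from −1 to 1. Sult1e1 correlates with Sult1d1 at 0.84 by level and at 0.19 by deviation, and Sult1b1 with Sult1c2 at 0.88 and 0.87.

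The liver genes whose level followed Sult1e1 most closely were Erp29, a chaperone of the endoplasmic reticulum (r = 0.93), Uqcrh, a subunit of respiratory complex III (0.93), Nudt13 (0.93), Mospd2 (0.92) and Yipf2 (0.92). Of 17556 genes, Sult1d1 ranked 168 by level, Sult5a1 388, Sult1a1 998, Sult1b1 5135 and Sult1c2 7542. In the same order, their ranks by deviations from the group means were 5118, 4249, 6500, 7756 and 12495. By deviations from the group means the closest were Vmn2r29 (0.85), Slc22a19 (0.85), Tmem69 (0.84), Plekhj1 (0.83) and Ipp (0.82), and no gene was among the first 5 by both measures. Within 500 kb of the chromosome 5 cluster, 7 of 17 other genes on the array were tested in liver. None was called between the genotypes, where 6.16% of all genes were. With age 3 were called, where 20.2% of all genes rose and 14.7% fell. Of these 3, Ugt2a1, a glucuronosyltransferase, fell by 0.44 (SE 0.15, limma adjusted p = 0.045). The other two rose, AK052843 by 0.84 (adjusted p = 0.0084) and the casein gene Csn3 by 0.74 (adjusted p = 5.3e-04).

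Other sulfotransferases did not share 1 pattern in liver. Of the 3 others tested that the array names Sult, Sult1c1 (genotype difference 0.08), Sult3a1 (0.16) and Sult4a1 (−0.16), none was called between the genotypes (limma, 6.16% of all genes called, none of the 3 with an unadjusted p under 0.05), and Sult1c1 (−0.86, adjusted p = 3.8e-04) and Sult4a1 (−0.59, adjusted p = 0.016) fell with age. Sult2a7 and Sult2a8, of the family that sulfates bile acids and hydroxysteroids, carry these names in the RefSeq table and another name on the array. Both were lower in Akt1+/- liver, with a difference of −2.27 for Sult2a7 (SE 0.47, limma adjusted p = 0.022) and −0.78 for Sult2a8 (SE 0.16, adjusted p = 0.022). The Sult2a7 level at 8 weeks was 1.11, 3.11 and 3.66 in Wt and −0.34, −1.06 and −1.80 in Akt1+/- liver, apart as for Sult1e1. With age, averaged over both genotypes, they moved in opposite directions, with 1.54 for Sult2a7 (adjusted p = 0.024) and −1.22 for Sult2a8 (adjusted p = 2.0e-04). The Sult2a7 level at 35 weeks was 2.20, 3.25, 2.51 and 3.01 in Wt and 0.17, 2.51, 2.66 and 2.28 in Akt1+/- liver. Older Wt arrays thus lay within the range of young Wt arrays, and the rise lay in Akt1+/- liver. Sult2a2 (genotype difference −2.01, adjusted p = 0.15, and age difference −1.06, adjusted p = 0.35) was called in neither comparison. Sult3a2 was not called between the genotypes (0.78, adjusted p = 0.22) and rose with age (1.14, adjusted p = 0.037). At 8 weeks alone, where 2.16% of all genes were called between the genotypes, Sult2a7 (−3.69, adjusted p = 0.028) and Sult2a8 (−1.16, adjusted p = 0.037) were again lower in Akt1+/- liver. At 35 weeks, where 3.49% of all genes were called, neither Sult2a7 (−0.84, limma adjusted p = 0.54) nor Sult2a8 (−0.41, adjusted p = 0.36) passed. The Sult2a genes are close copies of each other, and whether a probe reads more than 1 of them was not tested.

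The rest of the sulfation pathway was taken from lists of the genes that make and carry the sulfate donor, sulfatases, Golgi sulfotransferases, steroid enzymes, nuclear receptors and sex-biased liver genes. With the 4 further genes that the array names Sult, these lists had 111 genes on the array, of which 93 were tested in liver, and the genotypes differed for 3, where 6.16% of all genes were called. Chst3, a chondroitin sulfotransferase, was higher by 0.48 (SE 0.10, limma adjusted p = 0.024), Hsd11b1, which regenerates active glucocorticoid, was lower (−0.41, SE 0.099, adjusted p = 0.033), and Serpina1e, a male-biased antitrypsin, was lower (−0.46, SE 0.095, adjusted p = 0.022). The split of 1 higher and 2 lower became 1 and 13 when arrays were scaled to their median. By age, Elovl3, a male-biased fatty acid elongase, was lower in Akt1+/- liver at 8 weeks (−1.89, SE 0.35, adjusted p = 0.025), and its genotype difference changed with age (2.70, SE 0.46, adjusted p = 0.027, where 0.518% of all genes were called). Chst11, a chondroitin sulfotransferase, was higher at 35 weeks (0.71, SE 0.14, adjusted p = 0.019, where 3.49% of all genes were called). None of the 9 genes tested of donor supply, which include the PAPS synthases Papss1 and Papss2, and none of 13 sulfatases was called between the genotypes.

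With age, 10 of the 93 genes rose and 19 fell in liver, Sult1c1 and Sult4a1 included, where 20.2% and 14.7% of all genes did, and 6 rose and 45 fell under scaling to the median, which moved the median of all genes from 0.020 to −0.18. Donor supply fell for 2 of 9 genes, Papss2 (−0.45, limma adjusted p = 0.042) and the PAPS carrier Slc35b3 (−0.24, adjusted p = 0.023). Nuclear receptors fell for 4 of 14, among them the glucocorticoid receptor Nr3c1 (−0.60) and the xenobiotic receptors Nr1i3 (−0.53) and Nr1i2 (−0.43). Of 13 sulfatases, 3 rose, which were Ids (0.38), Arsb (0.35) and Sts (0.35), the steroid sulfatase that frees estrogens from their sulfates. The 2 that fell were Arsk (−0.69) and Sumf1 (−0.37). Among 7 male-biased genes, Hsd3b5 (−2.79), Slco1a1 (−2.66) and Cyp4a12a (−0.31) fell, and 1 of 7 female-biased genes fell, Cyp3a41a (−0.48). In muscle 12 of 80 pathway genes rose and 14 fell with age, where 16.5% and 14.5% of all genes did, and in fat 6 of 83 rose and 6 fell. No pathway gene was called between the genotypes in muscle or fat over both ages (limma). In fat at 35 weeks, where 1.7% of all genes were called, the xenobiotic receptor Nr1i3 (−1.69, SE 0.18, limma adjusted p = 3.9e-04) and the steroid enzyme Cyp17a1 (−0.73, SE 0.12, adjusted p = 0.010) were lower in Akt1+/- mice, and the genotype difference of Nr1i3 changed with age (−2.14, SE 0.27, adjusted p = 0.0025). There genotype, slide and scan day cannot be told apart. Summed markers also separated older Wt from older Akt1+/- fat. They were those of hepatocytes (2 of 5 well above background on every array, 6.65 to 6.94 and 6.24 to 6.50) and adipocytes (6 of 6, 10.49 to 10.69 and 10.14 to 10.40). Those of macrophages (5 of 6, 4.19 to 4.41 and 4.42 to 4.58) and kidney tubule (1 of 4, −3.96 to −3.60 and −3.35 to −2.91) did so too. Their part was not tested.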

How the data were processed

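The authors' deposited scanner files, made with Agilent Feature Extraction 9.1 per the labels, hold an intensity for each spot, background-subtracted in the processed column and not yet normalized between arrays. The deposited log2 table of the series is that signal scaled to each array's 75th percentile, and was used as an alternative. The sulfotransferases and the gene lists were chosen with earlier results of these data known.

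Control spots and spots with an outlier flag were left out. The log2 processed signal minus the 75th percentile of the array went into linear models (limma 3.58.1, R 4.3.3) with 4 group means per tissue, and in 1 fit of 42 arrays for differences between tissues. A gene was tested where 3 or more arrays of some group showed its probe well above background, its brightest probe stood for it, and p-values were Benjamini-Hochberg adjusted over all genes tested (17557 in liver, 17135 in muscle, 18359 in fat, 19855 in the joint fit), with a call below 0.05. Fits were tested on simulated data. The methods' test, a two-way analysis with an unadjusted p threshold of 0.01, was an alternative, as were scaling to the median, quantile normalization after a normexp background (offset 50), other filters on dim probes, the mean of a gene's probes, the replicate and the slide as blocks, and leaving out each array. Every sulfotransferase and every pathway gene that was called could be named in the text. A fold bound takes, in the dim tissue, the higher of the probe's own signal and the lowest signal well above background on each array. The number of arrays limits the precision of all values.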

Additional observations from a re-analysis of the deposited data

Results flagged for a closer look

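At 8 weeks the genotype difference of Sult1e1 had opposite signs in 2 tissues. Every Akt1+/- array was below every Wt array in liver (−2.31), as for 14.2% of all genes. In fat every Akt1+/- array was above every Wt array (0.72), as for 11.9% of all genes, and the difference was not called (limma adjusted p = 0.25). The difference between liver and fat was not tested, because the liver contrast chose the family. The genotype difference of Sult1a1 at 8 weeks was negative in liver (−0.41) and fat (−0.42) and positive in muscle (0.28), without overlap of the genotypes in any of them. The same separation held for 14.2% of all genes in liver, 15.3% in fat and 8.42% in muscle. Neither the fat difference (limma adjusted p = 0.093) nor the muscle difference (adjusted p = 0.29) was called. For fat against muscle the difference was tested and did not pass (−0.70, limma adjusted p = 0.086), and liver against muscle was not tested. Of 22 groups of 4 arrays in which a sulfotransferase was measured, none held an array that stood apart by Dixon's criterion.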

How the results depend on the processing

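Counts of calls moved by over 1.5 times from the reported value in the following settings, and the cause was not tested unless named. In fat, 1 sulfotransferase was called with age, where none was, under scaling to the median, the filter that asks for every array, the random slide block and the replicate block (Sult1e1 each time), and 1 without a filter on dim probes (Sult1d1, at background), which also gave 1 call for a change of the genotype difference with age (Sult1d1). In the joint fit 1 of 2 was called with age in muscle. Asking for every array left 2 genes in the tissue comparisons, of which 2 were called between liver and muscle, 1 between liver and fat and 2 between muscle and fat. Pathway genes called between the genotypes numbered 3 in liver, and 14 under scaling to the median, 6 in the joint fit, 1 without a filter and 0 under the random slide block. In fat they numbered 0, and 1 with normexp and quantile normalization, 1 under the random slide block and 3 in the joint fit. Pathway genes called with age in liver numbered 10 higher and 19 lower, and 51 (6 and 45) under scaling to the median. Sult1a1 between Wt liver and fat changed direction with normexp and quantile normalization (−0.58 against 0.45). The slide block and normexp each ended the call of Sult5a1 between liver and muscle (adjusted p = 0.052 and 0.051).

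Leaving out 1 array at a time gave 0 to 1 sulfotransferase called with age in fat, 3 to 4 in liver, 1 to 8 pathway genes called between the genotypes in liver and 0 to 2 in fat. The lowest liver count of pathway genes came without Wt replicate 2 at either age, and the highest without Akt1+/- replicate 2 at 35 weeks. Without Akt1+/- replicate 1 at 8 weeks it was 7, and without Wt replicate 1 at either age it was 5. The fat count was 2 without Wt replicate 1 at 8 weeks and 1 without Wt replicate 3 at either age. Sult5a1 between liver and muscle had adjusted p = 0.076, 0.058 and 0.090 without Wt liver replicate 1 or 3 at 8 weeks or replicate 1 at 35 weeks, and 0.068, 0.065 and 0.050 without Wt muscle replicate 2 or 3 at 8 weeks or replicate 3 at 35 weeks.

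Replicate numbers were not taken as pairs, since deviations of same-numbered arrays of the genotypes correlated at −0.19 to 0.072 at 8 weeks. At 35 weeks every pair correlated positively (0.10 to 0.53), and there the replicate number was also the array's position on its slide. With the replicate number as a block, Sult1e1 passed with age in fat (−0.77, adjusted p = 0.043) and 4 sulfotransferases were called with age in liver, as without it. Of the counts recomputed in other settings, 139 stayed within 1.5 times of the reported one and 18 did not. Probes below background limit what can be said of Sult1b1, Sult1c2 and Sult1d1 outside liver and of Sult1e1 in muscle.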
